A study of Mus musculus with 5 samples.

Results

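The genes described here encode the collagens, the laminins and a small set of other matrix proteins, measured in mouse NT2.5 mammary tumour cells and in bone and liver sub-lines derived from them. Members were the genes whose single annotated symbol has the form of a collagen chain (Col, number, a, number) or a laminin chain (Lama, Lamb or Lamc with a number), together with Fn1, Tnc, Fndc1, Thbs2, Lum, Dcn and Bgn. They came to 59 of the 18193 genes on the arrays, covered by 116 probe sets, and each gene was read from its probe set with the highest mean of log2(intensity + 16). A gene was tested where its highest intensity on the 5 arrays reached 25.1, the median of all values, which 41 of the 59 members did.

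NT2.5 is a tumour line from transgenic mice in which the promoter of mouse mammary tumour virus drives the rat neu oncogene. The bone sub-line was measured at passage 6, its final passage, and at passage 3, an early one, and the liver sub-line at passage 3 (final) and passage 1 (early). Untreated parental NT2.5 cells, which the labels give a preference for bone, liver and lung, were measured once. Each of these 5 samples was 1 array of bulk RNA, in which fewer cells expressing a gene and less RNA per cell cannot be told apart. Each sub-line is 1 lineage, and the sources used here do not say how the cells of a passage were recovered.

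Collagens are triple helices wound from alpha chains. Fibrillar collagens form the cables of connective tissue, fibril-associated collagens sit on their surface, and collagen IV forms the sheet-like network of basement membranes. Laminins, each built of an alpha, a beta and a gamma chain, form the other main network of basement membranes and bind integrins on epithelial cells. In mammary tissue the fibrillar matrix is mostly made by stromal fibroblasts, whereas epithelial cells contribute basement membrane chains.

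The upstream sequence is shown for 4 members that the results below turn on. Fndc1 was lower on every sub-line array, Col8a1 separated the bone from the liver sub-line, and Col9a1 and Col11a1 were lower at the later bone passage. Each sequence is the 250 bases before the annotated start in RefSeq (GRCm38.p6), 5′ to 3′ on the gene's strand. The 4 windows lie at chr17:7827303-7827552 (Fndc1, minus strand), chr16:57754738-57754987 (Col8a1, minus strand), chr1:24177360-24177609 (Col9a1, plus strand, the first of its listed starts) and chr3:114030290-114030539 (Col11a1, plus strand). Capitals mark matches, on either strand, to the TATA box with the letters TATAAA, the CCAAT box, the GC box with the letters GGGCGG, the AP-1 motif with the letters TGANTCA or a SOX-type motif with the letters ACAAAG.
Fndc1: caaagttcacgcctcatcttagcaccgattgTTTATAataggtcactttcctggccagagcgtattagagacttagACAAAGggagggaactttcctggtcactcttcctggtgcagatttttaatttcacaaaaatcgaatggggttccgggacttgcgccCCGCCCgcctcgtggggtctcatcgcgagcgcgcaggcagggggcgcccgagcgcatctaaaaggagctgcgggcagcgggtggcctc
Col8a1: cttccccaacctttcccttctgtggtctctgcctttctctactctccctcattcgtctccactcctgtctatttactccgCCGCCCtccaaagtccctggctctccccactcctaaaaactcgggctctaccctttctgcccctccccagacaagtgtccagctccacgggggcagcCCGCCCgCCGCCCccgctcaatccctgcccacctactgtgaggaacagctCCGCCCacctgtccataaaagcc
Col9a1: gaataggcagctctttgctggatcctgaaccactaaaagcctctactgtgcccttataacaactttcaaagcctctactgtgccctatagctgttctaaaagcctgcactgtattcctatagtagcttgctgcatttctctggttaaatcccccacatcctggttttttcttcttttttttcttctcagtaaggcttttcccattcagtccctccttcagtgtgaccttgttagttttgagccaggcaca
Col11a1: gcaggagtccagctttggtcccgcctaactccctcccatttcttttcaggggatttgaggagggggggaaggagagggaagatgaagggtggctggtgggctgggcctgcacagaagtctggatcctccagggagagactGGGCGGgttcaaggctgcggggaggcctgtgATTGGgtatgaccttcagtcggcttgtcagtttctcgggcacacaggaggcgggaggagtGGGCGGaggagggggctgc
GGGCGG was found 4 times before Col8a1, 2 times before Col11a1 and 1 time before Fndc1. Among 32851 mouse windows of the same length, 32.7% held this motif. The Fndc1 window also held 1 match to TATAAA, 219 bases before the start, where 12.4% of all windows hold one, and 1 to ACAAAG, which 16.5% hold. The Col11a1 window held 1 CCAAT match, a motif in 33.8% of windows. TGANTCA, in 6.75% of windows, had 0 matches in the 4 sequences, and the Col9a1 window matched none of the 5 motifs. Such matches describe the letters and do not show that a factor binds there. Of the 59 members, 42 had a window in the RefSeq table.

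The 18 members that stayed under the intensity filter include several hallmark genes of stromal matrix. Col3a1, a fibrillar collagen made with collagen I in connective tissue, read 12.3 and 12.8 at bone passages 6 and 3, 7.3 and 15.7 at liver passages 3 and 1, and 13.2 in parental cells. Dcn and Lum, small leucine-rich proteoglycans that coat collagen fibrils, lay between 1.5 and 18 and between 2.8 and 15.5 over the 5 arrays. The laminin alpha chains Lama1 and Lama2 stayed between 0.5 and 8.4. Also under the filter were Col2a1, Col8a2, Col10a1, Col11a2, Col13a1, Col17a1, Col19a1, Col24a1, Col25a1, Col26a1, Col4a4, Col6a4 and Col6a5, with a highest value of 24.4, for Col25a1 at liver passage 1.

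Collagen I was dim as well. Col1a1 read 15.6 and 15.4 in the bone sub-line (passages 6 and 3, the order used throughout), 16.1 and 28.1 in the liver sub-line (passages 3 and 1) and 34.3 in parental cells. Its partner chain Col1a2 read 38.1 and 52.2 in bone, 39.3 and 34.4 in liver and 46.7 in parental cells. The bone arrays lay on either side of the parental value and the liver arrays below it. Fn1, which encodes the cell-binding glycoprotein fibronectin, lay between 25.4 (parental) and 47.8 (liver passage 1). Thbs2, a matricellular thrombospondin, lay between 24.6 and 37.8, and Bgn, a proteoglycan that binds collagen, between 9.8 and 25.1.

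The labelled cell type was checked against markers of the cells that such a culture could hold. Of 14 mammary epithelial markers 13 passed the intensity filter, with Epcam between 3761 and 4384 and Krt18 between 5918 and 7880. Of 15 fibroblast markers 7 passed. Below the filter were Pdgfrb (0.3 to 13.1), Thy1 (5.4 to 17.6), Fap (1.9 to 11.6), Dpt (3.4 to 18), Twist1 (1.0 to 2.7), Tagln, Pi16 and Prrx1. The summed intensity of the 7 that passed was 2233 and 3787 in bone, 5188 and 4894 in liver and 6273 in parental cells, most of it from the intermediate filament gene Vim (1818 and 3525 in bone, 4769 and 4553 in liver, 5740 in parental cells).

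The bone and the liver sub-line were each set against the parental cells to find what separates a sub-line from its source. Fndc1, which encodes a protein with fibronectin type III repeats, was the member furthest from parental cells in both. Its intensity was 19.4 and 41.1 in bone and 41.1 and 30.9 in liver, against 424.2 in parental cells, and each sub-line array lay far below the parental one. It fell in the bone sub-line, 9.79-fold (limma adjusted p = 0.0472; log2 difference -3.29 ± 0.34, SE, over n = 2 arrays in bone and 1 in parental cells). In the liver sub-line the difference was -3.09 ± 0.34 and did not pass (limma adjusted p = 0.105). The bone-minus-liver difference of Fndc1 was -0.20 (95% interval -0.87 to 0.46). A further Fndc1 probe set gave the same direction with smaller differences, -0.92 in bone and -1.41 in liver. The bone call was also lost with a pseudocount of 1 (limma adjusted p = 0.163), with no filter (0.198) and with the average of all probe sets (0.0828, log2 difference -2.11), and over all alternatives the difference ran from -3.86 to -2.11. It was lost without either liver array (limma adjusted p = 0.117), where the spread rests on the bone passages alone. Without bone passage 3, Col11a1 was called as well, and without either bone array Fndc1 was called in liver (limma adjusted p = 0.0135).

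Fndc1 was the 1 member of 41 that limma called lower in bone than in parental cells, where 0.0636% of all 12587 genes tested were called. No member was called higher, against 0.0715% of all genes. At an unadjusted p under 0.05, 8 members were lower and 2 higher in bone, and the corresponding shares of all genes were 4.84% and 3.33%. Between liver and parental cells 0 members were called in either direction (0.0159% of all genes higher and 0% lower), with 5 lower and 1 higher at an unadjusted p under 0.05 (3.38% and 4.09% of all genes). In this comparison the macrophage markers that passed the filter had a median of 1.05, with 9 of 11 above 0. The median was 0.02 at liver passage 3 and 1.33 at liver passage 1. C1qa, C1qb, C1qc, Fcgr3 and Ptprc passed the filter through liver passage 1 alone, so their higher liver values largely restate the filter. Cd68, a lysosomal glycoprotein of macrophages, read 172.0 and 173.1 in liver and 52.1 in parental cells. Csf1r, the receptor of a macrophage growth factor, read 220.0 and 168.7 in liver and 67.6 in parental cells. Both were at least 2-fold higher on both liver arrays without being called. The part of the macrophage markers in the matrix values was not tested. All tests were fitted with limma on log2(intensity + 16) over the 5 arrays, with passages standing in for replicates, and the p-values measure the spread between these samples alone. Both comparisons use the same parental array, so any deviation of that array enters both.

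**Figure D1:**
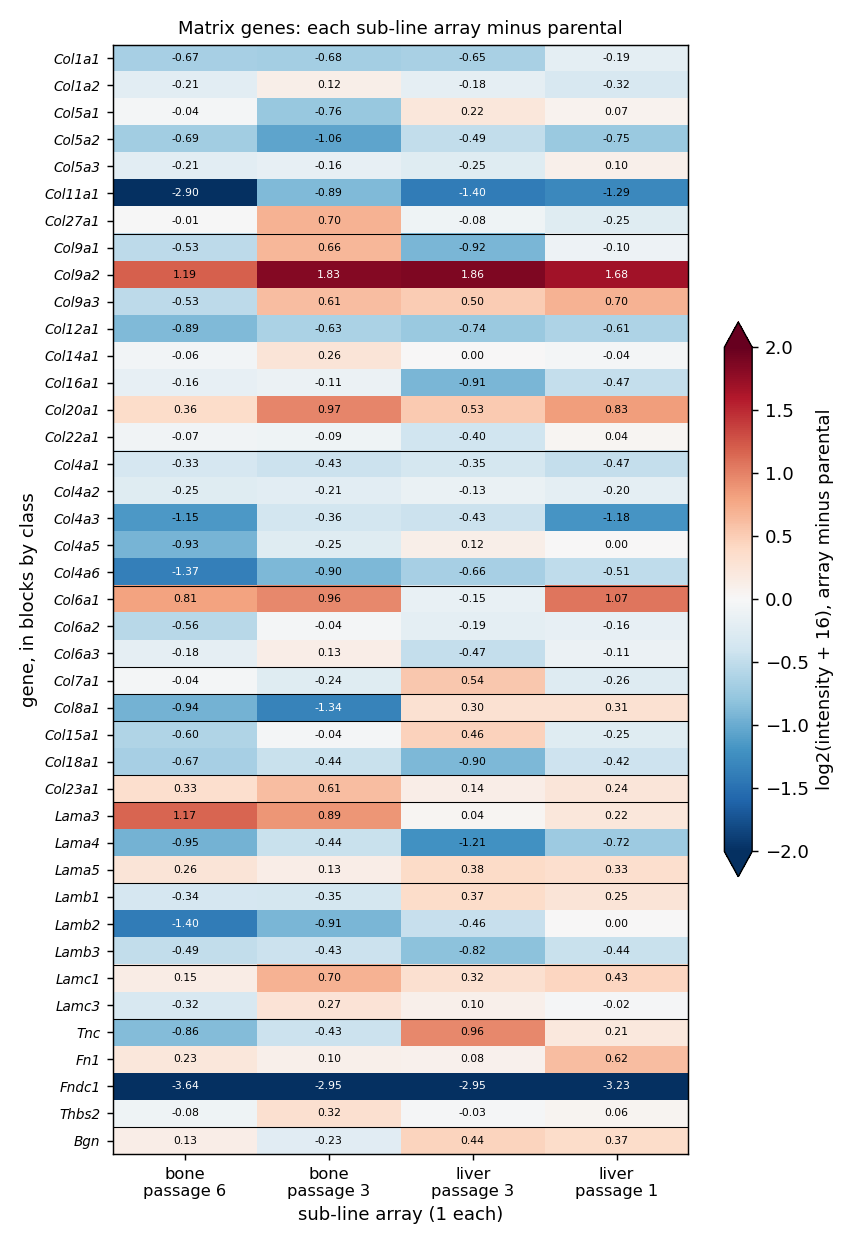
Difference of each sub-line array from the parental array, in log2(intensity + 16), for the 41 members that passed the intensity filter, one row a gene in blocks by class and one column an array; the colour scale ends at -2 and 2. Fndc1 is far below parental in every column (-3.64 to -2.95) and Col9a2 above it (1.19 to 1.86), while most other cells lie within 1 of 0.

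Counts over the 41 members are given as a description, since a gene can pass the filter through the group in which it is high. In bone, 28 of 41 had a mean difference below 0 and the median was -0.18, whereas over all genes tested 52.3% were below 0 and the median was -0.02. In liver, 22 of 41 were below 0 with a median of -0.07, against 48.4% and 0.01 over all genes. On all 4 sub-line arrays 15 members lay below the parental array and 7 above it, against 18.1% and 17.7% of all genes. The bone median was -0.32 at passage 6 and -0.16 at passage 3. The fibroblast markers that passed the filter had mean differences below 0 as well, in 7 of 7 cases. Their median was -0.58 in bone and -0.30 in liver. By single arrays, 1 of the 7 was above parental at bone passage 6 and 2 were at liver passage 1. Cxcl12 passed the filter through the parental array alone (56.7, against at most 17.4 elsewhere), so its lower sub-line values largely restate the filter. The part of the fibroblast markers in the matrix values was not tested.

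Among the basement membrane collagens, Col4a1, Col4a2 and Col4a6 lay below the parental value on every sub-line array, without passing the test. Col4a1 and Col4a2 encode the chains of the widespread collagen IV network, and they are transcribed in opposite directions on chromosome 8 from annotated starts 21 bases apart (GRCm38.p6). Col4a1 read 2785 and 2593 in bone and 2735 and 2517 in liver, against 3500.4 in parental cells, with log2 differences of -0.38 ± 0.22 and -0.41 ± 0.22 that did not pass (limma adjusted p = 0.739 and 0.756). Col4a2 read 1055 and 1085 in bone, 1151 and 1094 in liver and 1257 in parental cells, a narrower gap in the same direction (-0.23 ± 0.22 and -0.16 ± 0.22). For both chains the 4 sub-line arrays sat close together, below the parental array.

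The X-linked pair Col4a5 and Col4a6, which form collagen IV networks of more specialised membranes, differed more. Col4a6 read 152.6 and 218.8 in bone and 260.4 and 290.0 in liver, against 421.2 in parental cells, so that bone, liver and parental arrays did not overlap. Its difference was -1.14 ± 0.28 in bone (limma adjusted p = 0.304) and -0.59 ± 0.28 in liver (limma adjusted p = 0.709). Col4a5 read 502.7 and 814.7 in bone, 1058 and 971.3 in liver and 969.7 in parental cells. Col4a3 was near the filter, at 3.6 and 18 in bone, 16.4 and 3.2 in liver and 27.5 in parental cells. Col18a1, whose multiplexin chain carries the endostatin fragment, read 2386.5 and 2788 in bone and 2023 and 2842.5 in liver, against 3801 in parental cells (-0.56 ± 0.28 and -0.66 ± 0.28; limma adjusted p = 0.694 and 0.680).

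The laminin chains differed among themselves in direction. Lama5, an alpha chain of many adult epithelia, was slightly above parental on every sub-line array, at 614.8 and 559.8 in bone and 667.9 and 643.6 in liver, against 510.2 in parental cells. Lamc1, the gamma chain of most laminins, was also above parental on every array, at 770.5 and 1140 in bone, 871.3 and 938.3 in liver and 694.6 in parental cells. Lamb3, a beta chain of the laminin that anchors epithelia, was below parental on every array, at 864.4 and 903.3 in bone, 683.8 and 895.2 in liver and 1219 in parental cells. Lama4, an alpha chain known from vessel walls, was lower likewise, at 225.9 and 328.0 in bone and 185.1 and 267.2 in liver, against 450.5 in parental cells. None of these 4 chains passed the limma threshold in either sub-line (adjusted p from 0.587 to 0.905).

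Among the fibrillar and fibril-associated collagens, Col11a1, a minor chain that controls fibril width, read 37.9 and 200.3 in bone and 135.6 and 147.6 in liver, against 385.3 in parental cells. It was the further member, beside Fndc1, at least 2-fold lower on both liver arrays than on the parental one (-1.35 ± 0.73; limma adjusted p = 0.757), where 0.93% of all genes tested were. In bone the difference was -1.89 ± 0.73 (limma adjusted p = 0.571), and Fndc1 alone of the members was 2-fold lower in both bone passages (1.14% of all genes). Col9a2, a chain of collagen IX, was the member at least 2-fold higher than parental on both arrays of each sub-line (1.00% of all genes for bone and 0.858% for liver). It read 25.2 and 48.0 in bone and 49.2 and 41.6 in liver, against 2.0 in parental cells. The size of its difference therefore rests on intensities near or below the filter. Col9a2 passed the filter through the sub-line arrays alone, so its higher sub-line values in part restate the filter. The log2 difference was 1.51 in bone and 1.77 in liver (limma adjusted p = 0.232 and 0.204), and with pseudocounts of 64 and 1 it was 0.60 and 3.58 in bone and 0.73 and 3.95 in liver. The members 2-fold apart from parental in either direction numbered 2 for bone and 3 for liver. The bone count became 7 when its passage 3 was left out and 4 when its passage 6 was left out. The liver count became 5 when its passage 3 was left out. Leaving out an array removes pairs, so such counts can only stay or rise. Col12a1 was below parental on every array (36.3 and 46.6 in bone, 41.9 and 47.7 in liver, 80.9 in parental cells). This did not hold for a further Col12a1 probe set that passed the filter, at 48.4 at liver passage 3 against 41.2 in parental cells. Its differences from parental were -1.32 in bone and -0.07 in liver. Col5a2 read 9.7 and 3.9 in bone, 13.5 and 8.7 in liver and 25.4 in parental cells. It passed the filter through the parental array alone, so its lower sub-line values largely restate the filter.

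The bone sub-line was set against the liver sub-line to find what separates these sub-lines. Each is 1 lineage and their passages differ in part, so site cannot be told apart from lineage or passage number. Col8a1, a short-chain network collagen of vessel walls and of the basement membrane of the corneal endothelium, stood furthest apart. It read 381.7 and 284.4 in bone against 921.6 and 927.2 in liver, with 745.4 in parental cells, so that both bone arrays lay below the parental value and both liver arrays above it. The difference was 2.72-fold (log2 -1.44 ± 0.21, SE, n = 2 passages per sub-line; 95% interval -1.95 to -0.94) and just missed the threshold (limma adjusted p = 0.0834). The remaining 2 probe sets of the gene gave -1.60 and -1.31. With stage (early or final) blocked the gene was called lower in bone (limma adjusted p = 0.0287). It was also called with median centring (0.0370) and with a mean-variance trend (0.0460). Under the remaining 10 of 13 alternatives it was not called, among them a pseudocount of 1 (limma adjusted p = 0.199) and no filter (0.203).

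Limma called 0 of the 41 members between bone and liver, against 0.0953% of all genes in each direction. At an unadjusted p under 0.05, 6 members were lower and 2 higher in bone (9.06% and 5.05% of all genes). Col8a1 was the member whose bone arrays each lay at least 2-fold below each liver array, where 0.62% of all genes were lower by this count. No member was higher by it (0.445% of all genes). Leaving out bone passage 3 turned the count of 1 lower member into 4, and leaving out liver passage 1 turned it into 2. With fewer pairs to satisfy, that count can only stay or rise. Bone arrays lay below both liver arrays without overlap for 11 members and above them for 4, against 25.9% and 21.2% of all genes. The median difference of the members was -0.09, against -0.02 over all genes, and it was 0.09 without bone passage 6.

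Tnc, which encodes the anti-adhesive glycoprotein tenascin C, read 249.5 and 340.9 in bone against 920.6 and 540.6 in liver, with 466.4 in parental cells. As with Col8a1, the bone arrays lay below and the liver arrays above the parental value (bone minus liver -1.23 ± 0.30; limma adjusted p = 0.182). Lamb1, the beta chain that pairs with Lamc1 in most laminins, read 418.2 and 415.3 in bone against 697.1 and 638.9 in liver, with 533.9 in parental cells (-0.66 ± 0.18; adjusted p = 0.209 by limma). Lamb2, an alternative beta chain of vessels, kidney and synapses, read 71.4 and 106.2 in bone against 151.5 and 213.5 in liver, with 214.1 in parental cells (-0.92 ± 0.26; limma adjusted p = 0.216). For these 3 genes the sub-lines did not overlap. The remaining Lamb1 probe sets that passed the filter gave -0.41 and -0.57.

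Lama3 ran the other way. This alpha chain of epithelial anchoring laminin, the partner of Lamb3, read 156.4 and 125.8 in bone against 62.8 and 73.2 in liver, with 60.4 in parental cells. Its 1.86-fold difference (0.90 ± 0.20) did not pass (limma adjusted p = 0.153). A dimmer Lama3 probe set, at 9.4 or less on every array, gave -0.35. Col16a1, a fibril-associated collagen, was also higher in bone, at 371.0 and 383.9 against 214.3 and 294.6 in liver, with 415.5 in parental cells (0.56 ± 0.21; limma adjusted p = 0.327). Col4a1 and Col4a2 showed little difference between the sub-lines, with 95% intervals of -0.40 to 0.47 for Col4a1 and -0.49 to 0.36 for Col4a2.

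Some markers of other cell types also differed in value between the sub-lines. Macrophage markers had a median difference of -0.86 between bone and liver over the 11 of 16 that passed the filter. That median was 0.08 between bone passage 3 and liver passage 3, and against parental cells it was 0.02 at liver passage 3 and 1.33 at liver passage 1. Their summed intensity was 1212 and 781.4 in bone, 766.0 and 1002 in liver and 565.1 in parental cells, most of the bone sum being Cd14, a lipopolysaccharide co-receptor (928.2 and 450.2 in bone, 242.0 and 212.2 in liver, 336.0 in parental cells). C1qa, a complement chain made by macrophages, read 56.1 at liver passage 1 and at most 1.2 on the other 4 arrays. Like C1qb, C1qc, Fcgr3 and Ptprc, it passed the filter through liver passage 1 alone. The higher liver values of these genes therefore largely restate the filter. Of 5 osteoblast markers 2 passed, with sums of 430.1 and 503.3 in bone, 164.6 and 176.9 in liver and 504.7 in parental cells. Most of this was Alpl, tissue-nonspecific alkaline phosphatase, at 395.2 and 444.9 in bone against 108.1 and 142.6 in liver, with 470.3 in parental cells. Its bone minus liver difference was 1.63 (limma adjusted p = 0.0666), against 0.03 for Sp7, the other marker that passed. Ibsp, Dmp1 and Phex stayed at 16.2 or less. Of 9 endothelial markers 3 passed, with sums of 165.2 and 224.5 in bone, 282.4 and 243.9 in liver and 306.3 in parental cells. Flt1, a receptor for vascular endothelial growth factor, differed by -0.94 between bone and liver (limma adjusted p = 0.180). Kdr and Eng, the remaining ones that passed, went the other way (0.16 and 0.34), and the median of the 3 was 0.16. Pecam1, Tie1 and Vwf stayed at 8.9 or less. The part of all these markers in the matrix values was not tested.

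**Figure D2:**
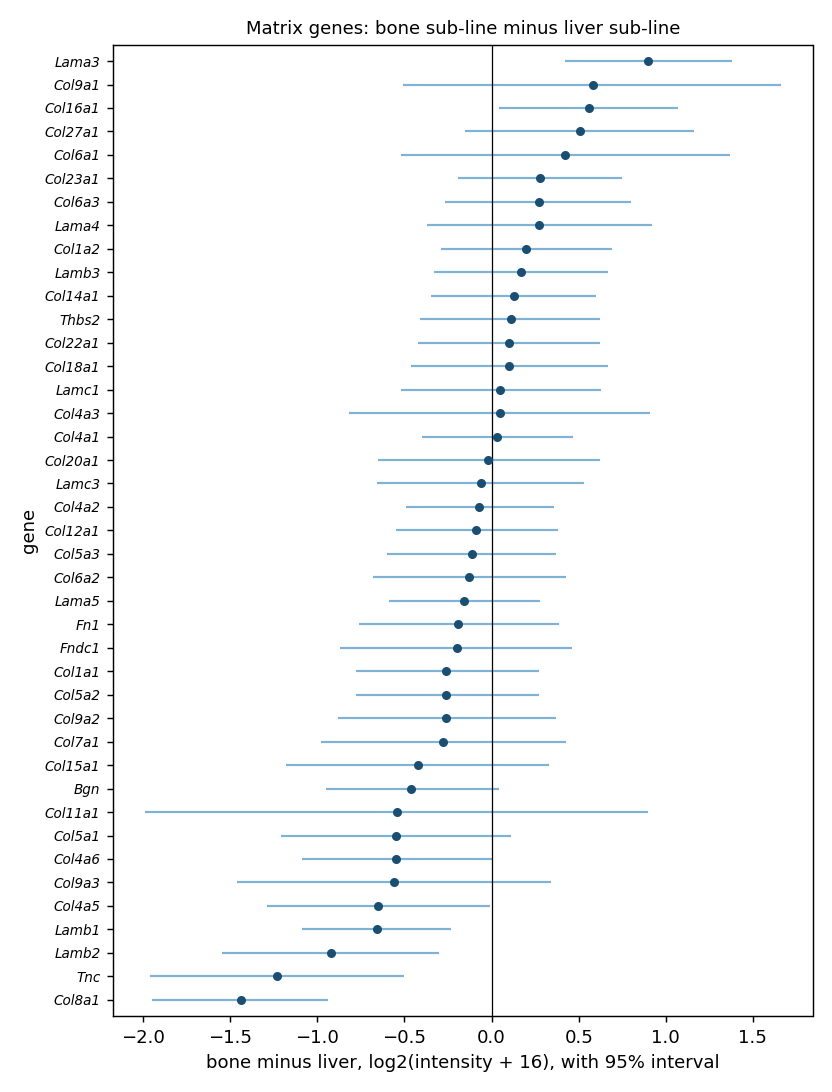
Bone minus liver difference in log2(intensity + 16) from the limma fit for the 41 members, sorted with the highest at the top; points are estimates over 2 passages per sub-line and bars their 95% intervals, not corrected for the number of genes. Lama3 is at the top (0.90) and Col8a1 (-1.44) and Tnc (-1.23) are at the bottom, and the intervals of 8 genes exclude 0.

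The passages of a sub-line were compared for change between an early and the final array, without replicates and hence without a test. In the bone sub-line, 3 of 41 members were at least 2-fold lower at passage 6 than at passage 3 (2.07% of all genes), and 0 were higher (0.358%). The array of bone passage 6 had the lowest median intensity, 21.9 against 24.6 to 26.4 on the other 4, and with median centring the count was 2. The 3 members were Col11a1, Col9a1 and Col9a3, whose chains take part in the mixed fibrils of cartilage. Col11a1 read 37.9 at passage 6 against 200.3 at passage 3, a 4.01-fold difference. Col9a1 read 1275 at passage 6 against 2945 at passage 3 (2.29-fold), and Col9a3 read 212.0 against 485.6 (2.20-fold). For all 3 genes a further probe set was lower at passage 6 too, with 26.5 at passage 6 against 196.4 at passage 3 for Col11a1, 320.1 against 701.0 for Col9a1 and 143.7 against 472.6 for Col9a3. Col2a1, the main cartilage collagen, was under the filter on every array.

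In the liver sub-line, 1 member was at least 2-fold lower at passage 3 than at passage 1 (1.12% of all genes) and 0 were higher (1.67%). It was Col6a1, a chain of the beaded-filament collagen VI, at 3.4 against 29.2, both near or below the filter. Of the collagen IX chains, Col9a1 read 969.5 at passage 3 against 1731 at passage 1, and Col9a3 449.2 against 517.0. Tnc read 920.6 at passage 3 against 540.6 at passage 1, while Col8a1 was level (921.6 and 927.2).

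At passage 3, which was measured in both sub-lines, 2 members were at least 2-fold higher in bone than in liver (2.23% of all genes) and 2 were lower (2.34%). Col9a1 read 2945 in bone passage 3 against 969.5 in liver passage 3, a 3.00-fold difference, and Col6a1 read 25.7 against 3.4. Lower were Col8a1, 3.12-fold, and Tnc, 2.62-fold. The order of the sub-lines for Col9a1 depended on the passage, since bone passage 6 (1275) lay between the liver arrays.

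**Figure D3:**
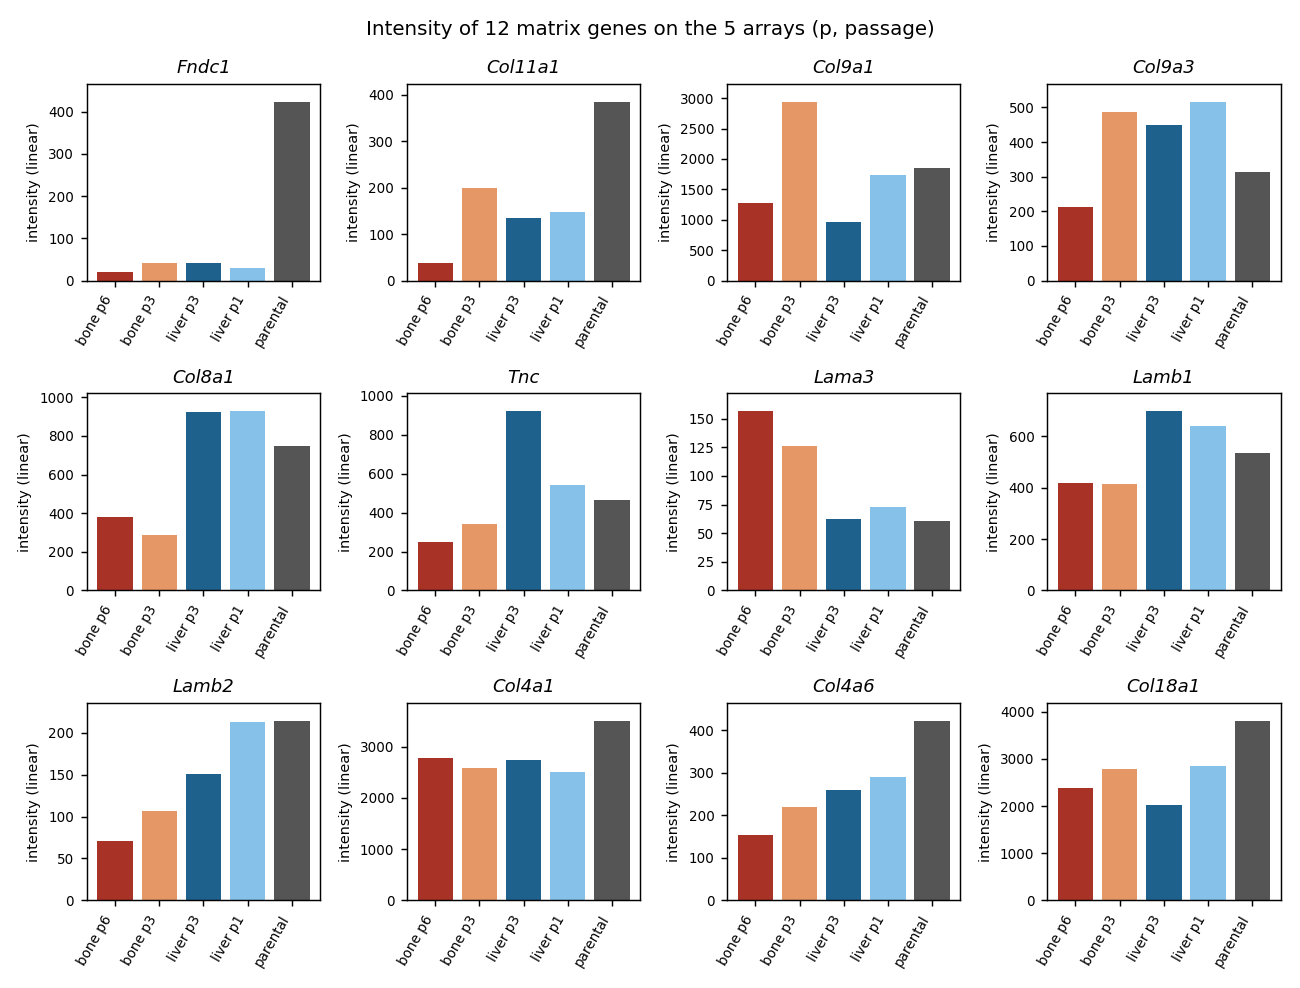
Intensity (linear scale, from 0) of 12 members on the 5 arrays, one bar an array, with bone passages 6 and 3, liver passages 3 and 1 and the parental cells from left to right. Fndc1 stands out in parental cells (424.2), Col8a1 and Tnc are higher in both liver arrays than in both bone arrays, and Col11a1, Col9a1 and Col9a3 are lower at bone passage 6 than at bone passage 3.

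Genes that work with these proteins were read from lists chosen by function. Of 25 genes for collagen processing, 19 passed the filter and 1 was called, higher in bone than in liver, where 0.0953% of all genes were. At an unadjusted p under 0.05, 3 were higher and 3 lower in bone than in parental cells (3.33% and 4.84% of all genes). By the same count 3 were higher and 4 lower in liver than in parental cells (4.09% and 3.38%). In bone against liver 1 was higher and 2 were lower (5.05% and 9.06%). Loxl4, a lysyl oxidase homologue of the family that cross-links collagen and elastin, was higher in bone, at 118.6 and 145.9 against 26.2 and 30.5 in liver, with 58.6 in parental cells (log2 difference bone minus liver 1.74 ± 0.19; limma adjusted p = 0.0473). The call held under 6 of 13 alternatives, over which the adjusted p ran from 0.00818 to 0.228; among others it was lost without bone passage 3 (0.0632), without liver passage 3 (0.158) and without liver passage 1 (0.228). P4ha1 and P4ha2, catalytic subunits of collagen prolyl hydroxylase, were below parental on every sub-line array without passing. P4ha2 read 7.3 and 6.7 in bone and 3.6 and 1.1 in liver, against 33.7 in parental cells. It passed the filter through the parental array alone, so its lower sub-line values largely restate the filter. P3h2, a prolyl 3-hydroxylase active on basement membrane collagen, read 107.4 and 286.1 in bone, 67.6 and 105.2 in liver and 322.8 in parental cells. The median of the list was -0.17 in bone and -0.14 in liver against parental cells, and 0.01 between bone and liver.

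Among basement membrane partners 10 of 18 passed the filter and limma called 0, with 3 higher and 2 lower in bone than in parental cells at an unadjusted p under 0.05 (3.33% and 4.84% of all genes), 1 and 0 in liver than in parental cells (4.09% and 3.38%), and 1 and 2 in bone than in liver (5.05% and 9.06%). Npnt, an integrin ligand of epithelial basement membranes, read 233.1 and 119.6 in bone and 201.1 and 89.4 in liver, against 31.8 in parental cells (log2 1.94 ± 0.52 and 1.66 ± 0.52; limma adjusted p = 0.355 and 0.537). Ntn4, a netrin that binds laminin, read 12.2 and 15.2 in bone against 97.7 and 53.9 in liver, with 39.5 in parental cells. Of 17 receptors for collagen and laminin 14 passed and 0 were called by limma (2 higher and 0 lower in bone than in parental cells, 1 and 0 in liver than in parental cells, and 1 and 0 in bone than in liver at an unadjusted p under 0.05, against the shares of all genes just given). Of 36 other matrix glycoproteins 24 passed and limma called 0 (by the same count 2 higher and 1 lower in bone than in parental cells, 3 and 0 in liver than in parental cells, and 2 and 4 in bone than in liver). Postn, encoding periostin, read 56.7 and 131.4 in bone against 223.8 and 198.0 in liver, with 82.0 in parental cells. Matn4, a matrilin, read 32.6 and 101.2 in bone, 14 and 8.4 in liver and 7.3 in parental cells. It passed the filter through the bone arrays alone, so its higher bone values largely restate the filter.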

How the data were processed

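RNA of 5 samples was hybridised to 1-colour Affymetrix Mouse Genome arrays, per the series' design text. The deposited values are linear intensities of 45101 probe sets. RMA is named, without a version, in the submitters' processing notes, although RMA output is in log2 and these intensities are not. With 2% trimmed at each end every array had a mean of 150, and array medians lay between 21.9 and 26.4. Values were converted to log2(intensity + 16), so fold changes are on this scale and understate those of dim genes. The pseudocount matters most for members near the filter.

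Gene names came from the platform annotation, in which 34945 probe sets had 1 gene, 932 several, and 9211 were not listed. Control probe sets, 64 in all, were dropped. A gene was its probe set of highest mean, and 12587 of 18193 genes had a highest intensity of at least 25.1, the median of all values. Genes were fitted with limma 3.58.1 (lmFit, eBayes) in R 4.3.3, with the 3 lines as groups and with 2 residual and 4.21 prior degrees of freedom. Benjamini-Hochberg adjustment ran over all genes tested and calls were made at 0.05. The fit takes the spread of the single parental array to equal that between passages. No passage was measured more than once, and 5 arrays limit the precision.

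Members and lists were chosen with earlier results of these data known. Named were members called, 2-fold apart in every pair of arrays or 2-fold apart between passages, and 20 fixed genes. Of the fixed genes 2 were not analysed here. From the lists of genes that work with these proteins, those called or 2-fold apart in every pair were named, at most 4 a list. Ccn2 and Ccn4 met this and were left out. Markers of cell types were named beyond this rule. Epcam, Krt18, Vim, Cd14, C1qa, C1qb, C1qc, Ptprc and Flt1 were neither called nor 2-fold apart in every pair. Cxcl12 and Fcgr3 were 2-fold apart in every pair and are mentioned only for how they passed the filter. Other members named in the text, among them Col4a5, Col4a6, Lama3, Lama4, Lamb2, Col5a2, Col12a1 and Col16a1, were chosen after their values were seen.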

Additional observations from a re-analysis of the deposited data

Results flagged for a closer look

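For 5 of the 41 members, on the probe set used, both bone arrays lay on one side of the parental array and both liver arrays on the other. Bone was the lower one each time, and the bone minus liver difference was -1.44 for Col8a1, -1.23 for Tnc, -0.66 for Lamb1, -0.65 for Col4a5 and -0.55 for Col5a1 (log2 scale). The difference itself was tested with limma and did not pass for any of the 5, with adjusted p from 0.0834 for Col8a1 to 0.419 for Col5a1. Of all genes tested 13.6% showed such opposite sides, a share near that of the members. The share of all genes with bone as the lower one was not counted. For Col4a5 liver passage 1 was level with parental cells (log2 difference 0.00), and Col5a1 was dim, at 14.2 to 43.6. Further probe sets that passed the filter repeated the pattern for Col8a1 but not for Lamb1, Col4a5 or Col5a1. On those of Lamb1 (256.4 against 230.6, 156.5 against 140.2) and Col5a1 (19.1 against 15.7) bone passage 6 lay above parental. On that of Col4a5 both liver arrays lay below parental (507.9 and 452.1 against 520.9). Tnc had no further probe set that passed. Both comparisons with parental cells use the same parental array.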

How the results depend on the processing

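Between bone and parental cells limma called 1 member, Fndc1. The count was 0 with a pseudocount of 1, with no filter (18193 genes tested) and with the average of all probe sets, and it ran from 0 to 2 when arrays were left out in turn. Over the 12 alternatives the adjusted p of Fndc1 ran from 0.0028 to 0.198 in bone, and from 0.00708 to 0.434 in liver, where it was called with a pseudocount of 64 or median centring, or without either bone array (0 to 1 calls when arrays were left out). Between bone and liver the count of 0 became 1, Col8a1, with median centring, a mean-variance trend, or the early or final stage as a replicate block. Its adjusted p ran from 0.0287 to 0.297 over 13 alternatives. Stage comes from the series' design text, and the labels give passages but no replicate numbers. No paired analysis was possible for the comparisons with parental cells because these have no stage. Of all genes, 9 were called higher and 8 lower in bone than in parental cells, and 56 and 42 with median centring.

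The median over the members was -0.14 for liver against parental with the average of all probe sets. With arrays left out it ran from -0.32 to -0.16 for bone against parental, from -0.13 to -0.04 for liver against parental, and from -0.18 to 0.09 for bone against liver, where its sign turned without bone passage 6. Members 2-fold apart in every pair numbered 7 with a pseudocount of 1, 1 with a pseudocount of 64 and 1 at a 3-fold threshold for bone against parental, and 0 at 3-fold for bone against liver. With arrays left out they ran from 4 to 7 for bone and from 4 to 5 for liver against parental, and from 1 to 4 between bone and liver. Fewer arrays leave fewer pairs to satisfy, so by definition these counts could only stay or rise. Between single arrays a pseudocount of 1 gave 9 members for bone passages, 4 for liver passages and 8 for passage 3 of bone against liver, and a 3-fold threshold gave 1, 0 and 2. For the liver passages the count was also 0 with a pseudocount of 64 or a filter on the mean intensity. The cause of the remaining shifts was not tested. The differences of Fndc1 and Col9a2 against parental cells in both sub-lines, of Col11a1 in liver against parental cells, and of Col8a1 and Loxl4 in bone against liver kept their direction under every alternative run. Low intensity limits what can be said of members near 25.1.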
